A study of Homo sapiens with 8 samples.

Results

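The 5 genes described here are FOS, FOSL1, JUN and JUNB, which encode subunits of the transcription factor AP-1, and ATF3, a related stress-induced gene. Their members are the H3K27ac peaks that overlap the gene or the 50 kb on either side of it in the 4 deposited peak lists. The siRNA-1 list held 40 such peaks, the siRNA-2 list 37, the control 1 list 34 and the control 2 list 37, together 148 of 186774 peaks on chromosomes 1 to 22 and X. Joined wherever they overlapped by 1 bp or more, the 148 peaks made 37 of 60669 regions. The gene intervals were known to the nearest kb of hg19: FOS at chr14:75745000-75749000, FOSL1 at chr11:65660000-65668000, JUN at chr1:59246000-59250000, JUNB at chr19:12902000-12904000 and ATF3 at chr1:212739000-212794000.

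H3K27ac, acetylation of lysine 27 of histone H3, marks active promoters and enhancers. It was measured by ChIP-seq in A549, a human lung adenocarcinoma cell line, 48 h after transfection. The knockdown group comprised 1 library from cells given CEBPB siRNA-1 and 1 from cells given CEBPB siRNA-2, and the control group 2 libraries from cells given control siRNA. All cells were the same line in the same medium, and the labels state no other genotype or agent. Each siRNA counts as a replicate of the knockdown. No label states whether the controls were separate cultures, so p-values measure only the spread between these libraries, which may be technical. How far the siRNAs lowered CEBPB was not measured by these libraries, and markers of the cell line were not checked, since no annotation of hg19 was used here. In bulk chromatin, fewer cells carrying the mark and less of it per cell cannot be told apart.

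AP-1 is a dimer of basic leucine zipper proteins. A JUN protein (JUN or JUNB) pairs with another JUN or with a FOS protein (FOS or FOSL1), and the dimer binds a short palindromic DNA site. FOS is the classic immediate-early gene, transcribed within minutes of a growth signal. FOSL1, also called FRA-1, is a FOS relative that lacks the strong activation domain of FOS. JUN activates its own promoter, JUNB is a weaker activator than JUN in many settings, and ATF3 can pair with JUN proteins or act as a repressor on its own. C/EBPβ, the product of the silenced gene, is itself a basic leucine zipper protein, as is the oxidative stress regulator NRF2, which is constitutively active in A549.

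RefSeq promoter windows of GRCh38.p14, from 250 bases before to 50 after a gene's start, were at hand for 4 of the 5 genes, and FOSL1 had none. ATF3 had 2 such windows, for alternative starts. The stretches below are shown because AP-1 and C/EBP proteins bind short sites of this kind, and capitals mark the matched letters. The positions are of GRCh38.p14 and cannot be set against the hg19 peaks.
FOS, chr14:75278734-75278801, plus strand: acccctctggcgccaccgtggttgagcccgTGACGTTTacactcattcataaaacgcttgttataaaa
JUN, chr1:58784077-58784144, minus strand: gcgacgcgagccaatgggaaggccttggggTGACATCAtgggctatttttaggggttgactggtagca
ATF3, first start, chr1:212565254-212565321, plus strand: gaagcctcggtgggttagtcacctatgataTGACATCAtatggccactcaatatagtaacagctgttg
ATF3, second start, chr1:212614983-212615050, plus strand: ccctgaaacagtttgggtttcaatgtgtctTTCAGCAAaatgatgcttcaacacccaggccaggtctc

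With the start base counted as 0, the FOS match lay at bases -64 to -57, the JUN match at -67 to -60, and those of ATF3 at -123 to -116 and at -5 to 2. The letters TGACATCA, a variant of the AP-1 site known from the JUN promoter, were thus shared by JUN and the first ATF3 window, and 2.61% of 35116 RefSeq promoter windows hold them on either strand. The letters TGACGTTT of the FOS window, a variant of the cyclic AMP response element, were in 0.487% of windows. Both of these motifs were added after the sequences had been seen. Of the others searched on both strands, the C/EBP core TTGCNNAA matched only the second ATF3 window, against 10.5% of all windows. The AP-1 site TGAGTCA (4.95% of all windows), the cyclic AMP response element TGACGTCA (1.85%) and the antioxidant element core TGACNNNGC (13.3%) matched none of the 5 windows. No match overlapped another. The JUNB window held none of the letters searched and was the richest of the 5 in G and C, at 71% against a median of 58.7% over all windows.

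The number of bases called as acetylated did not overlap between the groups at any of the 5 genes, with less at FOS and more at the other 4 after CEBPB knockdown. FOS had 5734 and 4746 bp with the siRNAs, against 9625 and 9062 bp in the controls. JUN had 14701 and 9736 bp with the CEBPB siRNAs, against 4663 and 5596 bp in the controls. FOSL1 had 29662 and 23516 bp after knockdown, against 17830 and 17016 bp in the controls. The groups did not overlap at these genes, and siRNA-1 stood above siRNA-2 in each. JUNB had 19104 and 13806 bp after knockdown, against 13137 and 12346 bp in the controls. ATF3 had 7324 and 7183 bp after knockdown, against 5926 and 5081 bp in the controls. At JUNB the siRNA-2 library lay close to control 1, whereas at ATF3 the siRNA libraries were nearly equal.

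In means, FOS had 5240 ± 699 bp after knockdown and 9344 ± 398 bp in controls (SD, n = 2 each), a ratio of 0.56. The ratio was 2.38 at JUN, from 12218 ± 3511 bp and 5130 ± 660 bp (SD, n = 2 each). It was 1.53 at FOSL1, from 26589 ± 4346 bp and 17423 ± 576 bp (SD, n = 2 each). It was 1.32 at ATF3, from 7254 ± 99.7 bp and 5504 ± 598 bp, and 1.29 at JUNB, from 16455 ± 3746 bp and 12742 ± 559 bp (SD, n = 2 each). The exact permutation p (two-sided) was 0.333 at each gene, the smallest that 2 libraries against 2 can give, so no gene could pass a threshold of 0.05. Differences of this kind were common. Among 2973 bins of 100 kb with at least as much called length, averaged over the 4 libraries, as the lowest of the 5 windows, 30.6% were higher and 33.0% lower in both knockdown libraries than in both controls. With bins chosen on the controls alone, 24.1% were higher and 40.2% lower. The gene windows span 102 to 155 kb, against 100 kb for a bin. The cutoff for the 2973 bins was 6378 bp, from the ATF3 window of 155 kb, so these bins had more called length per kb than that window. Of the 5 genes, 4 were higher and 1 lower. Over the 2973 bins the 5th and 95th percentiles of the ratio were 0.52 and 1.89, and of the 5 genes only JUN lay outside them. A lower ratio than that of JUN was found in 97.7% of these bins, a lower one than that of FOSL1 in 89.4%, and a lower one than that of FOS in 6.63%. ATF3 and JUNB were nearer the middle, with 80.9% and 79.5% of bins below them.

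**Figure D1:**
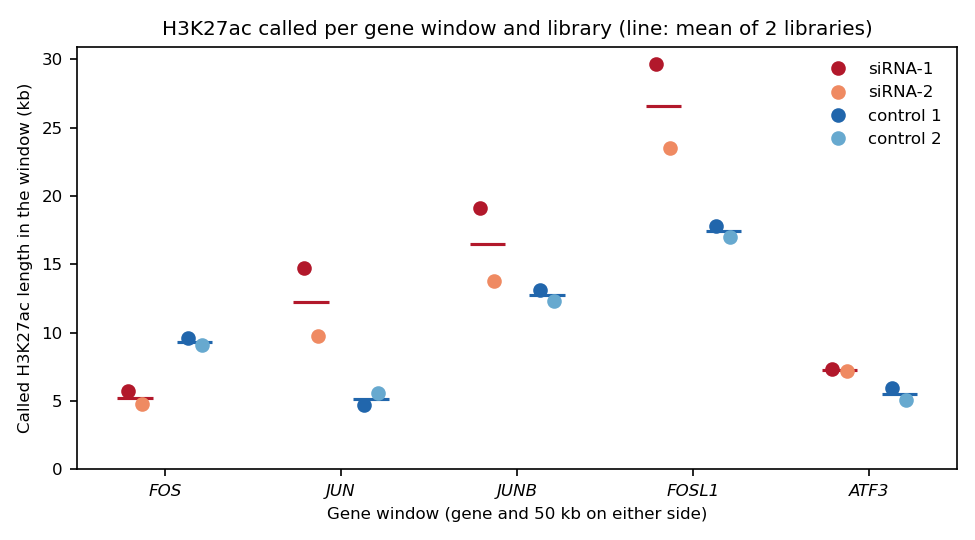
Called H3K27ac length (kb) in the window of each gene, by library, with lines at the group means. Both siRNA libraries lie under both controls at FOS (5734 and 4746 bp against 9625 and 9062 bp) and above them at the other 4 genes.

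The sizes rest on single libraries and settings in places. The knockdown minus control difference at JUN was 7089 bp, but 4606 bp without siRNA-1 and 2737 bp with flanks of 25 kb, which leave out its distal peaks. At JUNB the difference of 3714 bp was 1064 bp without siRNA-1, 6362 bp without siRNA-2 and 6136 bp with peaks of a −log10 q of at least 10. At FOSL1 the difference of 9166 bp was 6093 bp without siRNA-1. At ATF3 the difference of 1750 bp was 2738 and 2946 bp with flanks of 25 and 100 kb, and 764 bp, with overlapping groups, when the 4 lists were trimmed to equal called length. The ATF3 groups also overlapped at a −log10 q of at least 10. At FOS the difference of -4104 bp stayed between -5262 and -3610 bp under all the alternatives run.

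As a share of the window, FOSL1 was the most densely acetylated of the genes in every library, at 27.5% and 21.8% with the siRNAs against 16.5% and 15.8% in controls. JUNB followed, with means of 16.1% after knockdown and 12.5% in controls. Below it the order differed between the groups. After knockdown JUN came next, at 14.1% and 9.36%, and its values overlapped those of JUNB, at 18.7% and 13.5%. FOS at 5.51% and 4.56% and ATF3 at 4.73% and 4.63% differed by less than the spread between the siRNAs. In controls FOS came after JUNB, at 9.25% and 8.71%, ahead of JUN at 4.48% and 5.38% and ATF3 at 3.82% and 3.28%.

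With any overlap counted as a call, 2 whole regions were gained and 0 lost at these genes. Whether such small counts differ from the genome-wide shares was not tested. A peak was present in both controls at 23 regions, and 0 of these lacked one with both siRNAs, while genome-wide 13.3% did. The count of 0 depended on the setting: it was 2 at a −log10 q of at least 5, 1 at 10 or more, 2 with lists trimmed to equal called length, 4 where 50% of a region had to be called, and 3 without siRNA-1 or without control 1. With both siRNAs 25 regions had a peak, and 2 of these lacked one in both controls, against 13.6% genome-wide. Both lay at ATF3, and the count was 4 at a −log10 q of at least 5, 0 at equal called length and 8 where 50% of a region had to be called. The genome-wide shares given hold for any overlap counted as a call. They were not computed for the other settings, so the counts there cannot be set against them. Of the 37 regions, 20 were called in all 4 lists, and most of the differences lay in how long and how strong these shared regions were. Of the 15 that were neither shared nor gained, 8 were called in only 1 list, 6 of them with siRNA-1, and 7 in 2 or 3 lists. The regions called in 1 list had fold enrichments of at most 6.85.

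Of the 20 shared regions, 11 were longer and 5 shorter in both knockdown libraries than in both controls, against 26.9% and 25.6% of the 24133 regions called in all 4 lists. To compare strength, each shared region was given its percentile by −log10 q among those 24133 regions, a set that is the same in every library. A percentile of 100 is the strongest. The fold enrichments given beside the ranks are the authors' own values per peak and depend on each library's depth, so they describe peaks within a list. By rank, 10 of the 20 were higher in both knockdown libraries and 4 lower, against 26.8% and 30.5% of the 24133. All 4 of the lower ones, and 4 of the 5 shorter ones, were the shared regions of FOS. Regions of a single gene are neighbours and not independent of each other.

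**Figure D2:**
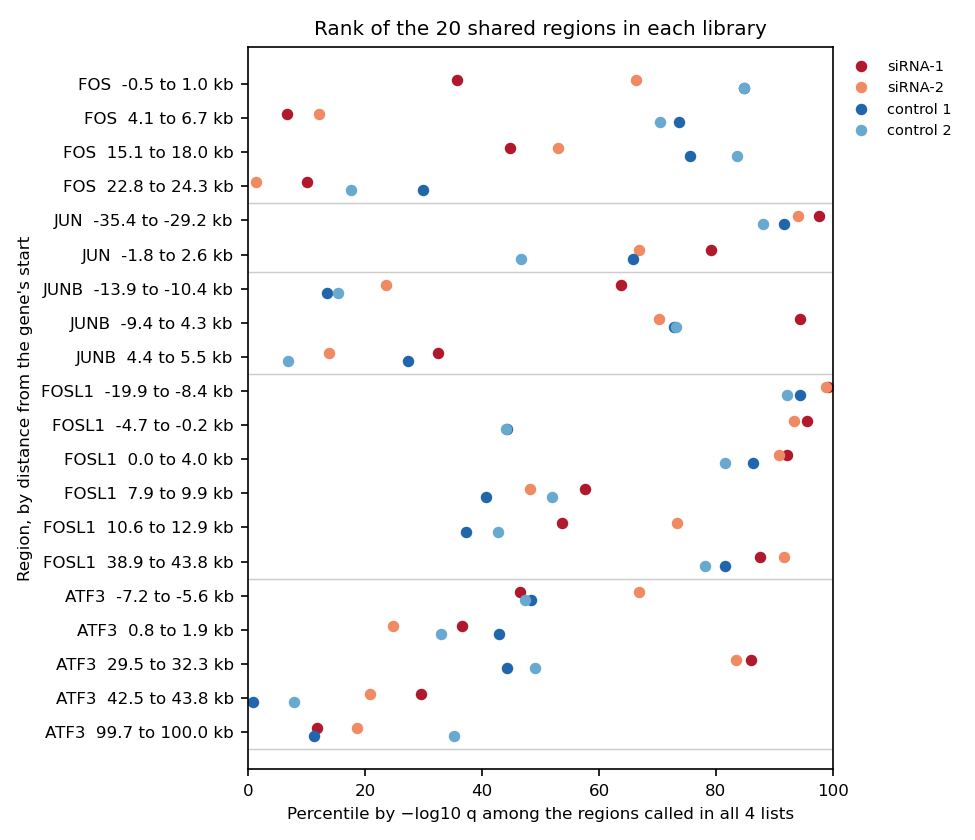
Percentile by −log10 q among the 24133 regions called in all 4 lists (0 to 100, weakest to strongest) for the 20 shared regions of the 5 genes, named by their distance from the gene's start, with 1 point per library. The 4 FOS regions rank lower with both siRNAs than in both controls, and the FOSL1 region from -4.7 to -0.2 kb ranks at 95.5 and 93.3 with the siRNAs against 44.2 and 44.1 in controls.

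At FOS the 4 shared regions, from the promoter to more than 20 kb past it, were all shorter and ranked lower after knockdown. Of the 24133 regions called in all 4 lists, 25.6% were shorter and 30.5% ranked lower in both knockdown libraries. The region at the start (chr14:75744536-75746041) was called over 461 and 648 bp with the siRNAs, against 1506 and 1116 bp in the controls. Its rank was 35.7 and 66.4 after knockdown and 84.8 in each control. The difference in rank, -33.7 percentile points, was -16.9 without siRNA-1. The 4 summits lay within 22 bp of each other, about 0.35 kb past the edge of the gene interval. The called stretch was narrower around this summit, which had a fold enrichment of 6.96 and 11.9 after knockdown and of 27.6 and 25.6 in controls.

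The largest FOS difference in rank was just past the gene's end (chr14:75749121-75751673), 4.1 to 6.7 kb from its start. This region ranked at 6.56 and 12.1 with the siRNAs, against 73.6 and 70.4 in controls, the widest rank difference among the 20 shared regions (-62.7 percentile points). Only 1070 and 908 bp of it were called after knockdown, against 2383 and 2553 bp in controls. Its fold enrichment was 3.86 and 5.23 with the siRNAs and 19.2 and 15.8 in controls. The siRNA libraries were closer to each other here than at the promoter.

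The next region downstream (chr14:75760070-75763041) held the strongest FOS peak with siRNA-1. It ranked at 44.7 and 53.0 after knockdown and at 75.6 and 83.6 in controls, and its called length was 2414 and 2613 bp against 2972 and 2933 bp. Both controls called it as a single peak, whereas both knockdown libraries called it as a pair of peaks. The last shared region, 22.8 to 24.3 kb from the start, was weak in every library and ranked at 10.1 and 1.36 after knockdown and at 29.8 and 17.5 in controls. A weak region just before the promoter, 0.7 to 1.4 kb from the start, was called over 236 bp with siRNA-1 and not with siRNA-2, against 541 and 354 bp in the controls. The weak pair of regions about 19 kb before the start did not follow this order: the one nearer the gene was called over 377 and 361 bp after knockdown, over 302 bp in control 1 and not in control 2.

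Over the FOS window, 33 bp were called with both siRNAs but in no control, and 2205 bp in both controls but with no siRNA. The number of peaks overlapped between the groups (8 and 7 after knockdown, 7 and 8 in controls; exact permutation p = 1, two-sided). The median peak was 514 and 469 bp wide after knockdown, against 1380 and 662 bp in controls. The gene next after FOS in RefSeq order is JDP2, which encodes another AP-1 partner, and the one before it TMED10. Which gene the downstream regions act on was not measured.

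**Figure D3:**
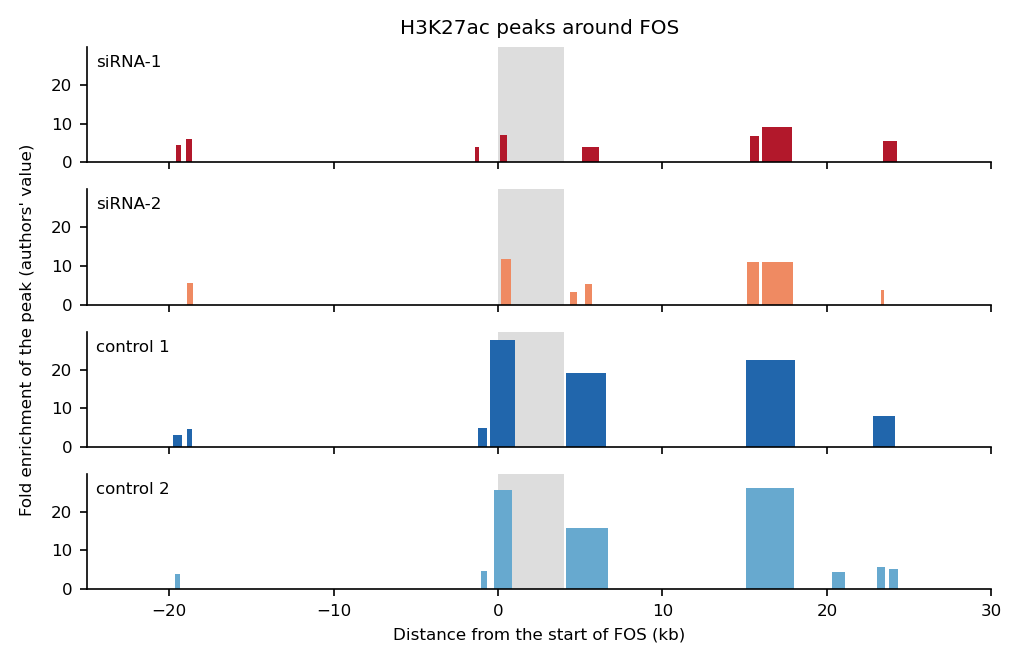
H3K27ac peaks around FOS by library, with distance from the start of the gene in kb (transcription to the right, gene interval in grey) and bar height giving the authors' fold enrichment of the peak. Knockdown libraries (upper rows) keep peaks at the start, at 4.1 to 6.7 kb and at 15.1 to 18.0 kb. Their fold enrichments were at most 11.9, and those in controls up to 27.6. Bar heights depend on each library's depth, which is unknown, so they describe peaks within a list.

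FOSL1 differed in the opposite direction, with its promoter and the 20 kb upstream of it more widely acetylated after knockdown. FOSL1 is read on the minus strand, so its start is the upper edge of its interval. The region over the start and the 5′ part of the gene (chr11:65664040-65668029) was called over 3990 and 2645 bp with the siRNAs, against 2144 and 2408 bp in controls. It ranked at 92.2 and 90.7 after knockdown and at 86.3 and 81.5 in controls, and its summits lay within 181 bp of each other. The difference in rank, 7.56 percentile points, was 4.91 without control 2.

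The region next to it upstream (chr11:65668153-65672664), from 0.2 to 4.7 kb before the start, had the largest higher rank among the 20 shared regions. It ranked at 95.5 and 93.3 with the siRNAs against 44.2 and 44.1 in controls, a difference of 50.3 percentile points. The siRNA libraries called 4512 and 3396 bp of it, against 1918 and 2089 bp in controls. Its fold enrichment was 45.7 and 41.3 after knockdown and 7.83 and 8.91 in controls. Each group's libraries were close to each other and far from the other group's. The difference was 11.0 points when peaks across gaps of up to 1 kb were joined, because the region then becomes part of a longer one.

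Further upstream, from -19.9 to -8.4 kb, lay the strongest peak by −log10 q of all 5 genes in every library (region chr11:65676418-65687904). The region was called over 11300 and 9200 bp after knockdown and over 7146 and 5873 bp in controls, with ranks of 99.2 and 98.9 against 94.3 and 92.2. Its summits lay within 70 bp of each other, about 15 kb before the start. The longest single peak here was 10178 and 8251 bp with the siRNAs. The same stretch was called as several peaks in the controls, where the longest peak of the whole window was 2991 and 3159 bp. In order, RefSeq places C11orf68 and DRAP1 next to FOSL1 on this side, and which gene the upstream regions belong to was not determined.

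Downstream of the FOSL1 start the regions differed in the same direction in rank or in length. A region about 11.7 kb past the start (chr11:65655097-65657382) ranked at 53.6 and 73.4 after knockdown and at 37.2 and 42.7 in controls, a difference of 23.5 percentile points that was 13.1 without siRNA-2. The far region at 38.9 to 43.8 kb ranked at 87.5 and 91.6 against 81.5 and 78.2, with overlapping lengths. The region at the gene's 3′ end, 7.9 to 9.9 kb past the start, was longer with the siRNAs (2012 and 1425 bp against 895 and 1005 bp), but its ranks overlapped. In all, 5 of the 6 shared FOSL1 regions were longer, and 5 ranked higher, in both knockdown libraries. Of the 24133 regions called in all 4 lists, 26.9% were longer and 26.8% ranked higher. As neighbours, the FOSL1 regions are not independent of each other. Across the window 5178 bp were called with both siRNAs and in neither control, and 140 bp in the reverse case. The same values were 1810 and 35 bp at JUNB and 1351 and 666 bp at ATF3. No genome-wide share of such bases is given here.

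The strongest acetylation in the JUN window lay at a distance, about 32 kb before the start of the gene. Both that region and the promoter were longer after knockdown. Which gene the distal region acts on was not measured. The distal region (chr1:59279214-59285404) was called over 6191 and 4084 bp with the siRNAs, against 2674 and 2648 bp in controls. It ranked at 97.6 and 94.1 after knockdown and at 91.7 and 88.0 in controls, and its 4 summits lay within 70 bp. The difference in rank, 5.98 percentile points, was 3.84 without siRNA-1 and 3.9 without control 2. The fold enrichment at its summit was 76.5 and 47.6 with the siRNAs and 46.6 and 34.7 in controls.

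The region over the JUN start (chr1:59247411-59251775) was called over 4047 and 3413 bp after knockdown and over 1606 and 2566 bp in controls. Its ranks were 79.1 and 66.9 against 65.8 and 46.7, so siRNA-2 and control 1 were close together. The difference of 16.8 percentile points was 6.86 without control 2, 10.1 without siRNA-1 and 25.4 without control 1. With both siRNAs it was called as a pair of peaks, of 2266 and 1781 bp in the siRNA-1 list and of 1553 and 1860 bp in the siRNA-2 list. Control 1 had 1 peak there, of 1606 bp, and control 2 had a peak of 2307 bp and a weak one of 259 bp.

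Past the JUN gene, 27.7 to 30.3 kb from its start, a region was called over 1222 and 2239 bp with the siRNAs. It was not called in control 1, and in control 2 it held a single peak of 382 bp with a fold enrichment of 3.65. The summits of the siRNA libraries in this region were 28.87 and 28.93 kb from the start and that of control 2 was at 30.06 kb. The remaining 3 JUN regions, from -41.5 to -35.5 kb, had fold enrichments of at most 8.29. That value was of the farthest one with siRNA-1, at percentile 54.6 of its list by −log10 q. All were called with siRNA-1, and the farthest of them also in control 1. The JUN window had 3787 bp called with both siRNAs and in neither control, and 151 bp in the reverse case. The number of peaks, 8 and 4 after knockdown against 3 and 4 in controls, overlapped between the groups (exact permutation p = 0.667, two-sided).

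**Figure D4:**
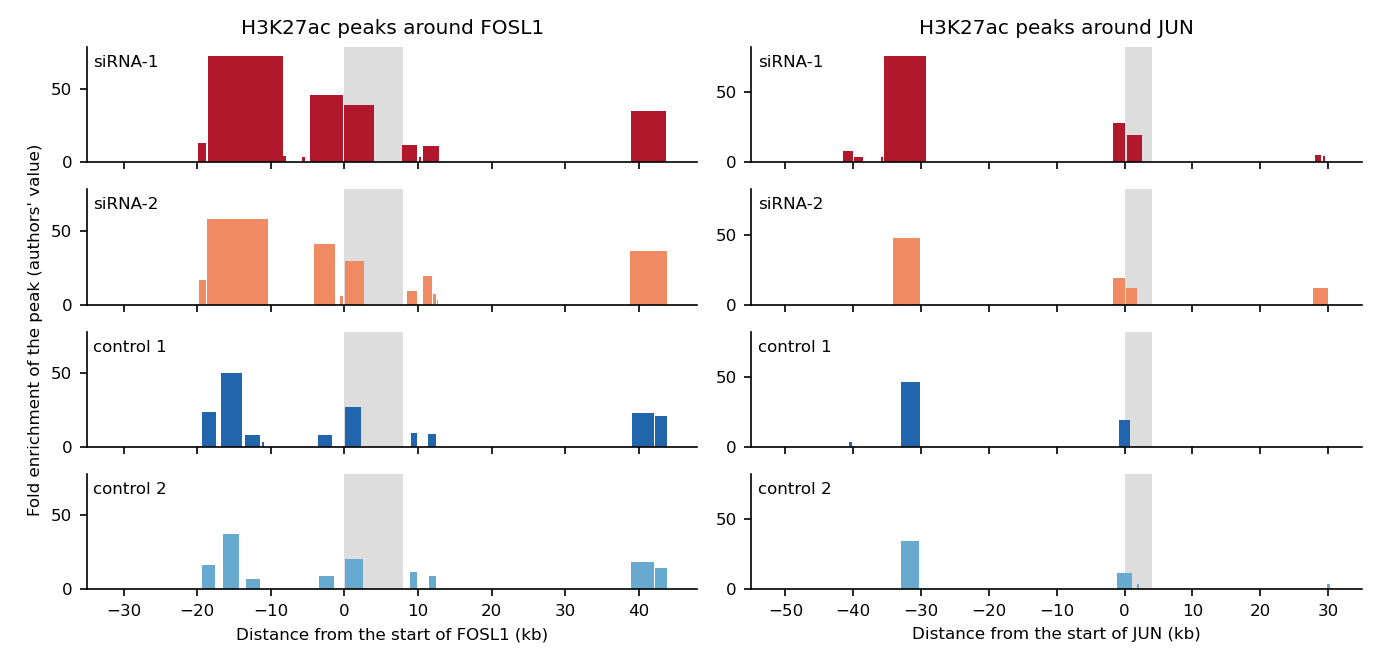
H3K27ac peaks around FOSL1 and JUN by library, with distance from each gene's start in kb (transcription to the right, gene interval in grey) and bar height giving the authors' fold enrichment of the peak. With the siRNAs (upper rows) the FOSL1 stretch from -19.9 to -8.4 kb holds a peak of 10178 and of 8251 bp, and the JUN region at -35.4 to -29.2 kb is called over 6191 and 4084 bp against 2674 and 2648 bp in controls.

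At JUNB the siRNA-2 library lay nearer to both controls than to siRNA-1 in called length over the window and in the rank of the region at the gene. Peaks around the gene joined into 1 region of 13705 bp (chr19:12892567-12906271), from 9.4 kb before the start to 4.3 kb past it. It was called over 13705 and 11456 bp with the siRNAs, in siRNA-1 as a single peak, against 10076 and 10176 bp in controls. Its rank was 94.3 and 70.2 after knockdown and 72.9 and 73.2 in controls, so the groups overlapped and siRNA-2 was the lowest. Without siRNA-1 the rank difference of 9.2 percentile points was -2.84.

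The strongest summit of this region was at different places. Relative to the JUNB start it lay at -6.65 and -8.07 kb with the siRNAs, and at -1.86 and -1.4 kb in controls. In the siRNA-2 list, however, the peak at -8.07 kb, with a −log10 q of 58.3, was nearly tied with one at -2.12 kb, with 57.7, and by fold enrichment a peak at 2.74 kb was the highest, so the difference in place between the groups rests on near-ties. With siRNA-1 the summit stands for a peak that covers the whole region. Over the gene interval itself the called length was 2000 and 1719 bp after knockdown and 1890 and 1749 bp in controls, so the longer calls were upstream. HOOK2 is the gene before JUNB in RefSeq order and PRDX2, which encodes a peroxiredoxin, the one after it.

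A shared region 10.4 to 13.9 kb before JUNB was longer and ranked higher in both knockdown libraries. It was called over 3536 and 1804 bp, against 1756 and 1432 bp in controls, so siRNA-2 exceeded control 1 by little. Its rank was 63.8 and 23.6 against 13.5 and 15.4, a difference of 29.2 percentile points. Leaving out siRNA-1 reduced this to 10.7 points, and leaving out siRNA-2 raised it to 48.8 points. When peaks across gaps of up to 1 kb were joined, this region merged with the region at the gene and the one just past it. The difference of the merged region was 9.59 points, with overlapping groups, so it is not a value of this region alone. The shared region just past JUNB, 4.4 to 5.5 kb from the start, overlapped between the groups in length and in rank. The number of peaks at JUNB was 5 and 7 after knockdown and 7 and 8 in controls, which also overlapped (exact permutation p = 0.667, two-sided).

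At ATF3 the groups were apart inside the gene and overlapped at its first start. The largest difference in rank was in a region within the gene, 29.5 to 32.3 kb past the first start (chr1:212768498-212771291). It was called over 2794 and 2229 bp with the siRNAs, against 1725 and 1629 bp in controls. Its rank was 86.0 and 83.5 after knockdown and 44.3 and 49.0 in controls, with summits within 102 bp. Its fold enrichment was 28.7 and 16.7 with the siRNAs and 9.03 and 9.35 in controls.

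A weaker region inside the gene interval, 42.5 to 43.8 kb past the first start, ranked at 29.5 and 20.8 after knockdown and at 0.818 and 7.85 in controls. Whether another ATF3 start lies in this region was not determined, since exact start sites of hg19 were not at hand. The region was called over 962 and 909 bp against 255 and 425 bp. The region next to the first start (chr1:212739805-212740851) overlapped between the groups, with 588 and 904 bp called after knockdown and 848 and 469 bp in controls, and ranks of 36.6 and 24.7 against 42.8 and 32.9. Over the ATF3 gene interval the called length was 4676 and 4276 bp after knockdown, against 2828 and 2523 bp in controls. In the 50 kb before it the groups overlapped, at 2363 and 2316 bp against 2806 and 2249 bp.

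Both gained regions had low fold enrichments. One lay 3.7 to 4.8 kb before the first ATF3 start (chr1:212734249-212735258), with fold enrichments of 4.05 and 6.82. By −log10 q it stood at percentile 31.7 of the siRNA-1 list and 54.7 of the siRNA-2 list. The other lay inside the gene (chr1:212753444-212753775), with fold enrichments of 4.43 and 4.36 and percentiles of 22.7 and 25.6. Its summits fell at the same distance of 14.62 kb from the start. With lists trimmed to equal called length, 0 regions were gained. A region at the far end of the upstream flank, from -47.9 to -46.2 kb, differed the other way, with 236 bp called with siRNA-1, none with siRNA-2, and 1590 and 896 bp in controls. Further out, a shared region about 100 kb past the first start was short in every library, at 285 and 258 bp after knockdown and 292 and 309 bp in controls. The number of peaks at ATF3 was 9 in each knockdown library against 7 and 8 in controls (exact permutation p = 0.333, two-sided). The groups overlapped with flanks of 100 kb (exact permutation p = 0.667) and at a −log10 q of at least 10 (p = 1).

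**Figure D5:**
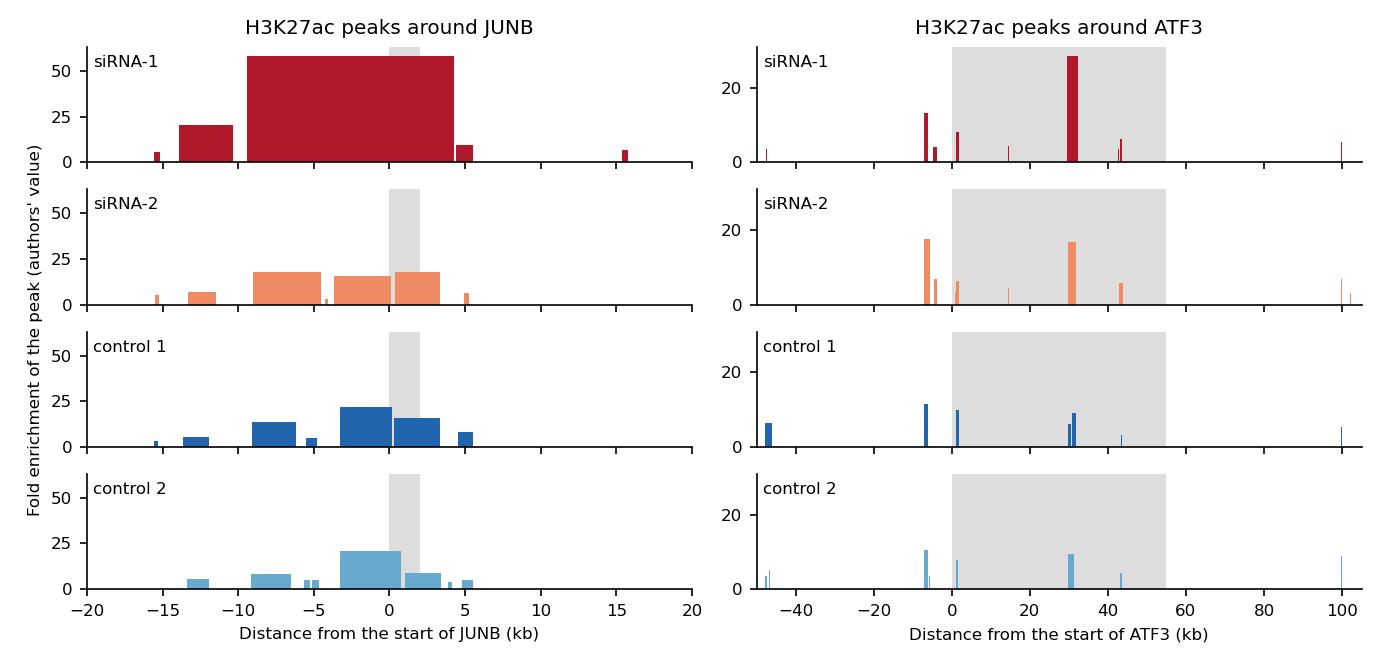
H3K27ac peaks around JUNB and ATF3 by library, with distance from each gene's start in kb (transcription to the right, gene interval in grey) and bar height giving the authors' fold enrichment of the peak. The JUNB region is a single peak of 13705 bp with siRNA-1 and several peaks in the other libraries, and the ATF3 region at 29.5 to 32.3 kb is called over 2794 and 2229 bp with the siRNAs against 1725 and 1629 bp in controls.

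Set side by side within each list, the strongest peaks of the 5 genes kept part of their order. By −log10 q, the FOSL1 peak came first and the JUN peak next in all 4 libraries. FOS was number 5 of the 5 in both siRNA lists and number 3 in both control lists. ATF3 was number 4 for siRNA-1, number 3 for siRNA-2 and number 5 in both controls. JUNB was number 3 for siRNA-1 and number 4 in the other 3 libraries. The strongest FOS peak was at percentiles 69.0 and 82.1 of the siRNA libraries' lists, against 91.7 and 91.6 in the controls' lists.

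The libraries held 47370 and 48216 peaks after knockdown, against 45537 and 45651 in controls, over 70.4 and 61.7 Mb against 67.9 and 62.1 Mb. The lists carry no read counts, so the depth of each library is unknown, and a base outside a peak is one that was not called, not one without acetylation. Genome-wide called length was greater in the libraries numbered 1 of both groups, and so was that at FOS, JUNB, FOSL1 and ATF3, while at JUN control 2 had more than control 1. With lists trimmed to equal called length, the knockdown minus control difference was 5818 bp at JUN, 4004 bp at JUNB, -5262 bp at FOS, 8828 bp at FOSL1 and 764 bp at ATF3, where the groups then overlapped.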

How the data were processed

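H3K27ac ChIP-seq was done in A549 cells, and the 4 peak lists were deposited as 1 list per library, so peaks were not pooled. Per the submitters' processing notes, the authors used BWA 0.7.17, SAMtools 1.7.0, MACS2 2.2.7.1 and hg19; the sources used here do not give their options or the role of the 4 input libraries, which were not analysed here. For each peak the authors' lists give positions, a fold enrichment (a linear ratio), a −log10 p, a −log10 q and a deposited score. The score was not used. The highest q was 0.0498. No list holds counts, so no count model was possible and depth is unknown; precision is limited to the spread of 2 libraries per group.

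Peaks on chromosomes 1 to 22 and X were clipped to each window for called length and joined into regions where they overlapped by 1 bp or more. Gained regions had peaks in both knockdown libraries and neither control, and lost regions the reverse. Groups were compared by exact permutation tests (two-sided). Backgrounds were all regions of the genome and bins of 100 kb. Counting was tested on simulated lists. Regions were named by a rule: those over the gene, lost or gained ones, and the strongest outside the gene; the other shared regions were named after their values were seen. The members, lists and tests were chosen with earlier results of these data known. Ranks among shared regions, the other choice of bins and 2 motifs were added after seeing the data. Sequences and neighbouring genes come from RefSeq tables of GRCh38.p14; other AP-1 genes were not analysed here for want of hg19 positions. Alternatives changed the flanks, the −log10 q minimum, the called length per list, the joining of peaks and the libraries used. Python 3.11.15, numpy 2.4.6, pandas 2.3.3 and matplotlib 3.10.9 were used.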

Additional observations from a re-analysis of the deposited data

How the results depend on the processing

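Differences in called length (knockdown minus control) kept their direction at all 5 genes under the alternatives run: flanks of 25 and 100 kb, a −log10 q of at least 5 or 10, equal called length, gaps of 500 bp filled (added after seeing the data), and leaving out each library. They ranged without 1 library from 4606 to 9572 bp at JUN, 1064 to 6362 bp at JUNB, -4598 to -3610 bp at FOS, 6093 to 12239 bp at FOSL1 and 1328 to 2172 bp at ATF3. At ATF3 the exact permutation p was 0.667 at a −log10 q of 10 or more and at equal length.

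Peak numbers were less stable. At a −log10 q of 10 or more the difference was 0.5 at JUNB and -1.5 at FOSL1, and at 5 or more it was -0.5 at FOSL1 and -1 at FOS; fewer peaks enter there by construction. Without 1 library they ranged from 0.5 to 4.5 at JUN, -2.5 to -0.5 at JUNB, -0.5 to 0.5 at FOS, 0 to 1 at FOSL1 and 1 to 2 at ATF3. Which genes had peak numbers that did not overlap between the groups also varied: JUN at a −log10 q of 5 or 10 or more and with flanks of 25 and 100 kb, FOSL1 at 10 or more and with 25 kb, and JUNB with 100 kb (exact permutation p = 0.333 each). ATF3, apart in the main setting, was also apart at 5 or more and with 25 kb (exact permutation p = 0.333 each). No genome-wide share of such peak numbers is given here.

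Lost regions numbered 2 at a −log10 q of 5 or more, 1 at 10 or more, 2 at equal length and 4 where 50% of a region had to be called. Gained regions numbered 4 at 5 or more, 0 at equal length, 1 with gaps of up to 1 kb joined and 8 with the 50% rule; the cause was not tested. Without 1 library, 0 to 3 were lost and 3 to 11 gained, since fewer calls are then required. Genome-wide shares were not computed for these settings.

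Of 120 alternative rank differences, 6 reversed, in 5 regions. Without 1 library, the JUNB region at the gene ranged from -2.84 (no siRNA-1) to 19.7 percentile points and the one just past it from -5.39 (no control 2; -1.92 without siRNA-1) to 16.8. The ATF3 region before the start ranged from -1.09 (no siRNA-2) to 17.8 and the one about 100 kb past it from -20.9 to 2.44 (no control 2). The region at the FOSL1 3′ end gave -3.71 when ranked by fold enrichment.

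A replicate block on the label numbers leaves each mean difference as it was (7089 bp at JUN, -4104 bp at FOS, 9166 bp at FOSL1). In this balanced layout that follows from the arithmetic, so it is no check of stability. The libraries numbered 1 deviated to the same side of their group means in 4 of the 5 windows, and the labels do not say that the numbers pair samples.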
